A study of Mus musculus with 8 samples.

Results

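The genes described here are those of the proteasome, chosen as every gene symbol that begins with Psm, one of the letters a to g and a digit. The rule found 49 genes among the 14861 of the deposited table, and 48 of them encode subunits, regulators or assembly factors of the proteasome. The exception, Psmc3ip, encodes a partner of the meiotic recombination machinery that was named for its binding to a proteasome ATPase. Transcription was measured with PRO-seq, which maps engaged RNA polymerases by letting them extend their nascent RNA in isolated nuclei, in a clonal line of mouse induced pluripotent stem cells. Every group carried the FUCCI2 reporter of the cell cycle, and the culture held irradiated feeders, serum, LIF and inhibitors of MEK and GSK3. The 4 groups were mitotic cells held with nocodazole (200 ng/ml for 6 h) and shaken off, cells released from that block for 1 h and for 3 h, and untreated asynchronous cells. The labels list 2 libraries for each group, 8 in all, but the table gives 1 combined normalized signal per gene and group, so no difference below has a replicate check, and no test was made. The 1 h and 3 h releases were matched by meaning to the columns for early and late G1.

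The proteasome is the main protease of the cytosol and nucleus and degrades proteins marked with chains of ubiquitin. Its 20S core is a barrel of α and β rings with the proteolytic sites inside, and the 19S regulatory particle, made of a base with a ring of ATPases and a lid, binds the ubiquitin chain, removes it and threads the substrate into the barrel. Together they form the 26S proteasome, which drives the cell cycle by destroying cyclins and other regulators at set times, and on whose activity the FUCCI reporter itself depends. Immune signals replace the catalytic β subunits with those of the immunoproteasome, which favours peptides that MHC class I molecules can present. Naive pluripotency markers were transcribed in these cells: 10 of 10 on the list used here were in the table, with summed signals of 63.0 during mitosis, 1487 at early G1, 1422 at late G1 and 1410 in asynchronous cells. Of 30 fibroblast markers of feeder cells, 16 were in the table, with summed signals of 9.23, 239, 211 and 154 in the same order of columns. S100a4 and Twist1, fibroblast markers, were listed at 0 in mitosis. In bulk samples such as these, fewer cells of a type and less transcription per cell cannot be told apart.

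The proteasome genes returned above their cycling level in early G1 and stood near it in late G1. In mitosis their median signal was 5.13% of the asynchronous signal over the 47 genes with a mitotic signal above 0, in early G1 it was 157% and in late G1 106% over all 49. For all genes of the table the same medians were 5.36%, 124% and 116%. The 31 constitutive subunits of the 26S particle had medians of 5.26%, 165% and 105%. The peak column was shared by most: 27 of these 31 had their highest signal in early G1 (87.1%), and 37 of the 49 genes did (75.5%), against 44.1% of all genes. The authors' deposited table gives each gene a temporal class, and 30 of the 49 were in Early_Spike (61.2%), a class that holds 33.6% of all genes. Of the rest, 13 were in Early_Plateau, 3 in Gradual (Psme1, Psme2 and Psmg3) and 3 in Transient (Psma8, Psmb6 and Psmb9). The sources used here do not say how these classes were made, and they describe the same columns.

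**Figure D1:**
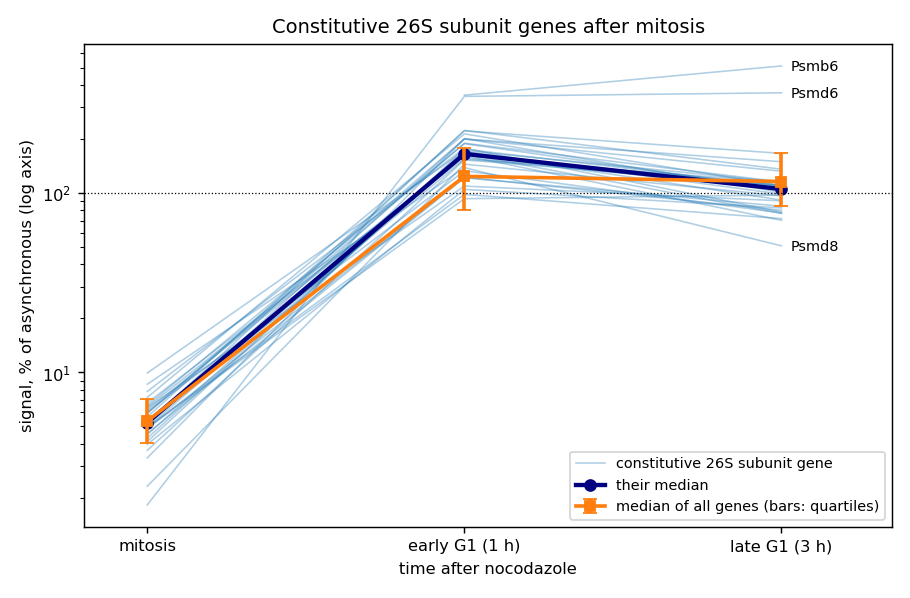
Signal of the 31 constitutive 26S subunit genes in mitosis, early G1 and late G1 as a percentage of their asynchronous signal, on a log axis, with their median and the median and quartiles of all genes. The median of the subunits passes the asynchronous level in early G1 (165%) and lies close to it in late G1 (105%), while Psmb6 and Psmd6 stay far above and Psmd8 lies lowest in late G1; the line of Psmb6 starts in early G1 because it is listed at 0 in mitosis.

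In mitosis every member with a signal above 0 was at least 2-fold below its asynchronous signal, 47 of 47, and so were 99.1% of all genes tested, while 0.0208% were at least 2-fold higher. Folds here and below are ratios of (signal + 0.1), which understates changes of weak genes. The median log2 ratio of mitotic over asynchronous cells was -4.08 for the members and -3.89 for all genes. Shares kept in mitosis ran from 1.36% to 9.93%. Psmd2, a scaffold subunit of the base, kept the most (9.93%), followed by the lid gene Psmd8 (8.60%) and the ATPase gene Psmc5 (7.84%). Psmb9, an immunoproteasome gene, kept the least of those above 0 (1.36%), followed by the lid gene Psmd6 (1.83%) and by Psmc3ip (2.01%). Psmb6 and Psmb10, a constitutive and an immunoproteasome catalytic gene, were listed at 0 in mitosis. All these mitotic values are small, between 0.0384 and 3.11 where above 0. The size of the mitotic fall rests on the authors' scaling. Columns set to equal medians lose a general change by construction, and there 4 of the 47 members were at least 2-fold lower, beside 6.998% of all genes. By early G1 all 47 were at least 2-fold above mitosis, beside 99.3% of all genes (0.00692% were at least 2-fold lower), with a median log2 ratio of 4.61 against 4.21 for all genes. With equal medians 5 were at least 2-fold higher and 1 lower, beside 4.94% and 13.8% of all genes.

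Early G1 was then set against asynchronous cells. The members lay above the cycling level by a modest and widely shared amount: 41 of 49 were higher in early G1 (63.7% of all genes were), 28 were at least 1.5-fold higher (57.1%, against 36.4% of all genes), and 9 were at least 2-fold higher (18.4%, against 17.7%). One gene, Psme1, was at least 2-fold lower (9.53% of all genes were). The median log2 ratio was 0.65 for the members and 0.30 for all genes, a difference of 0.35. Quantile normalization gave a difference of 0.28, and a minimum mean signal of 2.5 gave 0.30. Equal medians shift members and all genes alike, so the difference of 0.34 found there is no check. The counts at 2-fold with equal medians became 3 higher and 3 lower, beside 8.72% and 14.9% of all genes. The 3 higher genes were Psmb6, Psmd6 and Psmb8. For the constitutive 26S subunits 29 of 31 were higher in early G1, all but Psmb5 and Psmd3, and 22 were at least 1.5-fold higher. The quartiles of their log2 ratios were 0.50 and 0.96, a width of 0.45, against a width of 1.13 for all genes.

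Late G1 against early G1 gave the reverse order. Of the 49 genes, 39 were lower in late G1 (79.6%, against 53.8% of all genes), 20 were at least 1.5-fold lower (40.8%, against 23.5%) and 7 at least 2-fold lower (14.3%, against 7.52%). Psmb9 alone was at least 2-fold higher, where 15.1% of all genes were, 3 genes were at least 1.5-fold higher (24.8% of all genes) and 10 were higher by any amount (46.2%). With equal medians the counts at 2-fold were 2 higher and 5 lower, beside 17.4% and 5.19% of all genes. The median log2 ratio was -0.55 for the members and -0.08 for all genes, so the members lay 0.46 lower. This difference was -0.31 with quantile normalization and -0.38 with a minimum mean signal of 2.5. Both comparisons use the early G1 column, so they are not separate evidence. Among the constitutive subunits 28 of 31 were lower in late G1, and Psmb5, Psmb6 and Psmd6 were the exceptions. Their middle log2 ratios spanned -0.81 to -0.43, a width of 0.38 against 1.13 for all genes. The 18 remaining members were more mixed, with 11 lower and 7 higher and a median of -0.17.

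**Figure D2:**
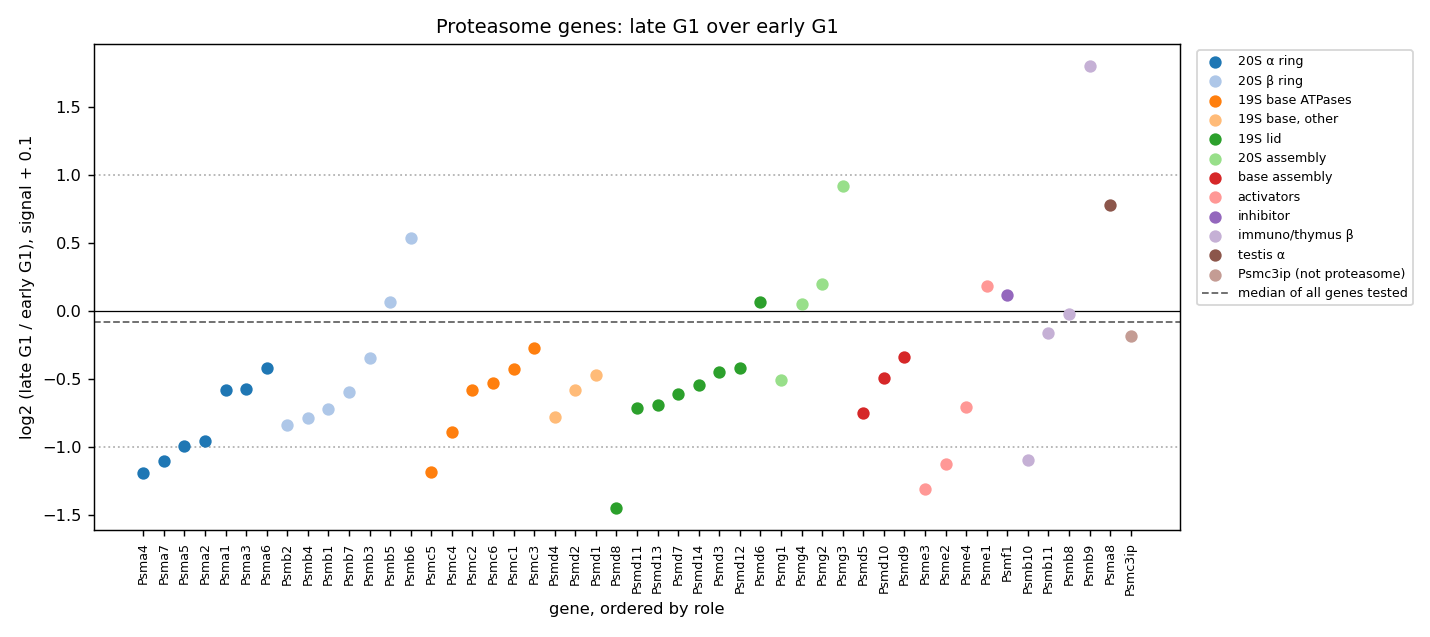
Log2 ratio of late G1 over early G1 (signal + 0.1) for each of the 49 genes, ordered and coloured by role, with the median of all genes tested (-0.08) dashed and 2-fold changes dotted. Most constitutive subunits lie below the median of all genes, from -1.44 for Psmd8, while Psmb9 stands highest at 1.80.

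Against asynchronous cells the members were close to even in late G1. There 27 were higher and 22 lower (62.4% and 37.6% of all genes), 4 were at least 2-fold higher (8.16%, against 16.9%) and 1 at least 2-fold lower (2.04%, against 5.14%). At 1.5-fold, 6 were higher and 4 lower (30.5% and 12.3% of all genes). Psmb6, Psmd6, Psmb8 and Psmb9 were the higher genes, and Psme2 was the lower one. The median log2 ratio was 0.08, beside 0.21 for all genes, a difference of -0.13. It turned to -0.13 with equal medians and -0.15 with quantile normalization, each of which gave 3 members at least 2-fold higher and 4 lower. Of all genes 13.0% were higher and 7.91% lower with equal medians, and 11.05% and 9.999% with quantile normalization.

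**Figure D3:**
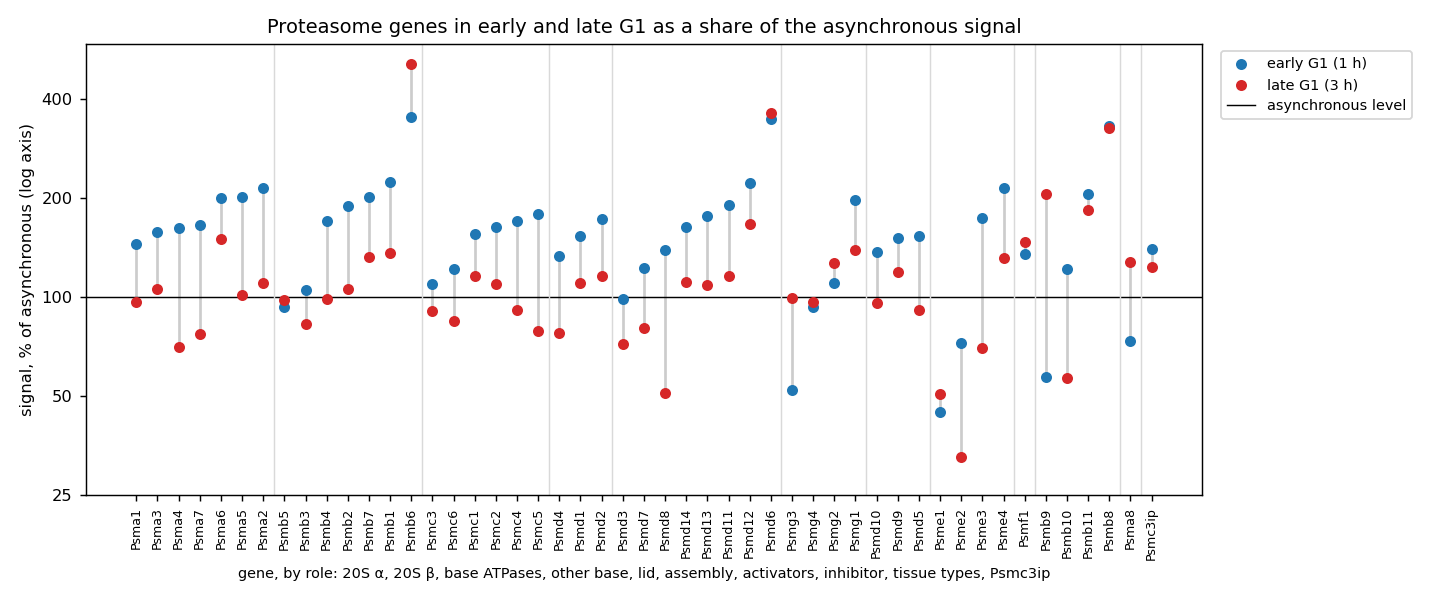
Signal in early G1 (blue) and late G1 (red) as a percentage of the asynchronous signal (line at 100%, log axis) for each of the 49 genes, grouped by role. Blue lies above red for most subunits, while Psmb6, Psmd6 and Psmb8 stand far above 100% in both columns and Psme1 and Psme2 lie below 100% in both.

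Promoter sequence offered a feature that the choice of genes did not use. RefSeq promoters (GRCm38.p6, 250 bases before to 50 after the start) were found for 41 of the 49 genes and for 11496 genes of the table, and 8 short motifs were searched on both strands. Matches to one motif may share bases with those to another. CCGGAAG, the core of ETS factor sites, was in 15 of 41 member promoters (36.6%), against 16.9% of all. TGACNNNGC, the antioxidant response element that Nfe2l1 and Nfe2l2 bind with small Maf proteins, was in 6 (14.6%, against 14.8%). GGGCGG, the Sp factor box, was in 23 (56.1%, against 62.7%), CCAAT in 14 (34.1%, against 37.9%) and TATAAA in 4 (9.76%, against 7.26%). Longer motifs, given by name, were rare: the palindrome of nuclear respiratory factor 1, another protein than Nfe2l1, was in 2 (4.88%, against 1.95%), the YY1 site in 1 (2.44%, against 1.99%) and the BANP palindrome in 1 (2.44%, against 1.06%). The median ratio of observed over expected CpG was 0.76 in member promoters and 0.74 in all. A match is a description of letters and not a bound site. The 250 bases before the start are shown for 5 genes that the results turn on: Psmb9, the gene that gained most in late G1 (chr17:34187331-34187580, minus strand), Psmb6 and Psmd6, the genes furthest above the cycling level (chr11:70525107-70525356, plus strand, and chr14:14120946-14121195, minus strand), Psmb5, a catalytic gene that did not share the early G1 excess (chr14:54617996-54618245, minus strand), and Psmd8, which lost most between early and late G1 (chr7:29180674-29180923, minus strand). Capitals mark matches to any of the 8 motifs, and each line runs 5′ to 3′ and ends at the base before the RefSeq start. For Psmb9 the start given with the signal (34187764) has an offset of -434 bases from it. That start is upstream of the stretch shown and outside it.
Psmb9: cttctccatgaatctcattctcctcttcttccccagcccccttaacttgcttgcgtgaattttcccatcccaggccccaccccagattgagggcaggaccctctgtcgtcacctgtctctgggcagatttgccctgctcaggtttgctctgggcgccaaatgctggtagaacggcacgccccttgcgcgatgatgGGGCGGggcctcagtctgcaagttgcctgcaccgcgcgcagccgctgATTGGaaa
Psmb6: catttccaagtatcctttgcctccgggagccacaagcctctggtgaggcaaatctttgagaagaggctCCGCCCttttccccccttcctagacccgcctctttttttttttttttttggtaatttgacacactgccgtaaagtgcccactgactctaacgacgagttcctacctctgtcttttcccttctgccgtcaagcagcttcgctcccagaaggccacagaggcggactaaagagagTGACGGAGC
Psmd6: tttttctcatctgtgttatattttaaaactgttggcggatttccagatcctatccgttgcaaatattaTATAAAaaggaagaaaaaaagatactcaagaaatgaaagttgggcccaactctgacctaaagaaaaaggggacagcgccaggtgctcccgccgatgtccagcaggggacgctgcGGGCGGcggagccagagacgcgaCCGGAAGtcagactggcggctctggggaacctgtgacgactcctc
Psmb5: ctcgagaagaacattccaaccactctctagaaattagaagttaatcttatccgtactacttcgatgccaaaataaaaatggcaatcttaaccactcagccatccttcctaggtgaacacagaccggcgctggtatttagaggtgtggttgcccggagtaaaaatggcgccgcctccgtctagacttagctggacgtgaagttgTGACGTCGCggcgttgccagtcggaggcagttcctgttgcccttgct
Psmd8: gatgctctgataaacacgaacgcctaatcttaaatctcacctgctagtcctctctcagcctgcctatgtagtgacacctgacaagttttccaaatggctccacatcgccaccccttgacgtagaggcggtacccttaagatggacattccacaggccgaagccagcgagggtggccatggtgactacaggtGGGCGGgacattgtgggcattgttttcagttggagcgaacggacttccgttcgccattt
In these lines Psmb9 holds a GC box and an inverted CCAAT box, Psmb6 an inverted GC box and, ending at the start, an antioxidant element, Psmd6 a TATA box, a GC box and an ETS core, Psmb5 an antioxidant element 47 bases before the start, and Psmd8 a GC box. The Psmb9 stretch also contains the RefSeq start of Tap1, which is read on the other strand.

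The α ring of the 20S core, whose subunits close and open the entry to the barrel, was higher in early G1 and lower again in late G1. All 7 genes were higher in early G1 than in asynchronous cells and all 7 were lower in late G1 than in early G1, with medians of 0.72 and -0.95 on the log2 scale. Against asynchronous cells in late G1 they were divided, 4 higher and 3 lower. Psma4 had a signal of 1.22 during mitosis, 31.9 at early G1, 13.9 at late G1 and 19.7 in asynchronous cells, a log2 ratio of -1.19 for late over early G1. Psma7 had 2.49, 77.5, 36.1 and 46.9 in the same order, a log2 ratio of -1.10. These genes thus had their peak in early G1 and were below the cycling level in late G1. Psma2 had 0.822 during mitosis, 24.2 at early G1, 12.4 at late G1 and 11.3 in asynchronous cells, and Psma5 had 0.395, 23.8, 11.9 and 11.8. Both were at least 2-fold above the cycling level in early G1, and in late G1 they stood at 109.8% (Psma2) and 100.8% (Psma5) of it. With equal medians their early G1 log2 ratios were 0.77 (Psma2) and 0.68 (Psma5), under 2-fold. Psma6 had 0.478, 18.96, 14.2 and 9.47 and kept 149% in late G1. The sources used here do not say whether signals are divided by gene length, so no result is read from the levels of different genes.

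The β ring holds the proteolytic sites, and its 3 catalytic genes differed. Psmb7, the trypsin-like subunit, followed most of the ring with 0.809 during mitosis, 27.2 at early G1, 17.99 at late G1 and 13.6 in asynchronous cells. Psmb5, the chymotrypsin-like subunit, had 0.993, 18.8, 19.7 and 20.2, which is 93.0% of the cycling level in early G1 and 97.4% in late G1. Psmb6, the caspase-like subunit, had 0 during mitosis, 30.1 at early G1, 43.9 at late G1 and 8.58 in asynchronous cells. It was 3.48-fold above the cycling level in early G1 and 5.06-fold in late G1, the highest ratios of all 49 genes in both comparisons. Psmb1, a structural subunit, had 0.772, 33.1, 20.1 and 14.8, and was 2.23-fold above the cycling level in early G1. Psmb4, another structural subunit, had 1.47, 55.4, 32.1 and 32.6.

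In the 19S base, the 6 ATPases that unfold the substrate were all lower in late G1 than in early G1 (median log2 ratio -0.55) and all higher in early G1 than in asynchronous cells (0.67). Psmc5 had 3.07 during mitosis, 69.8 at early G1, 30.7 at late G1 and 39.2 in asynchronous cells, and was the ATPase gene at least 2-fold lower in late G1 than in early G1 (log2 ratio -1.18). Psmc6 had 0.594, 15.8, 10.95 and 13.0. The other base genes encode the scaffolds Psmd1 and Psmd2 and the ubiquitin receptor Psmd4, and each was higher in early G1 and lower in late G1 by less than 2-fold. Psmd1 had 0.222 during mitosis, 9.21 at early G1, 6.63 at late G1 and 6.01 in asynchronous cells, Psmd2 had 1.17, 20.3, 13.6 and 11.8, and Psmd4 had 1.38, 30.5, 17.7 and 22.9.

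The lid, which carries the deubiquitinase Psmd14, held both extremes of the 19S particle. Psmd8 had 3.11 during mitosis, 50.1 at early G1, 18.4 at late G1 and 36.1 in asynchronous cells. Its log2 ratio of late over early G1, -1.44, was the lowest of the 49 genes, and its late G1 signal was 50.8% of the cycling level. Psmd6 had 0.139 during mitosis, 26.3 at early G1, 27.6 at late G1 and 7.61 in asynchronous cells. It kept an excess of 3.42-fold in early G1 and 3.59-fold in late G1. Psmd12 had 1.16, 45.5, 34.1 and 20.5, 2.21-fold above the cycling level in early G1 and 1.66-fold in late G1. Psmd7, which pairs with Psmd14 in the lid, had 1.81, 45.7, 30.0 and 37.4. Psmd14 itself had 0.602, 15.3, 10.4 and 9.41, 162% of the cycling level in early G1 and 111% in late G1.

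Assembly factors build the core and the base without staying in the finished particle. The 4 genes of core assembly, Psmg1 to Psmg4, did not move together: 1 was lower and 3 were higher in late G1 than in early G1. Psmg1 had 1.24 during mitosis, 32.5 at early G1, 22.9 at late G1 and 16.5 in asynchronous cells, like the subunits. Psmg2, whose product pairs with that of Psmg1, had 0.237, 8.64, 9.94 and 7.86. Psmg3 had 1.11, 14.3, 27.1 and 27.4, so it stood at 52.2% of the cycling level in early G1 and reached it in late G1. Psmg4, whose product pairs with that of Psmg3, had 0.540, 12.1, 12.6 and 13.0. Another gene of the table, Gm26938, starts downstream of the Psmg3 start on the same strand. Of the base chaperones, Psmd5 had 0.799, 23.2, 13.7 and 15.1, and Psmd10, which encodes gankyrin, had 0.0754, 2.54, 1.78 and 1.87.

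Activators that open the 20S core in place of the 19S particle split into pairs. Psme1 and Psme2, the interferon-inducible PA28 subunits that form one ring together, were below the cycling level in both G1 columns. Psme1 had 1.46 during mitosis, 14.8 at early G1, 16.8 at late G1 and 33.1 in asynchronous cells. Psme2 had 0.374, 5.89, 2.66 and 8.15, the lowest ratio of late G1 to asynchronous cells among the members (log2 ratio -1.58). Psme3, the nuclear PA28 subunit, and Psme4, the activator PA200, were above the cycling level in early G1. Psme3 had 0.491, 16.6, 6.68 and 9.58, with a log2 ratio of -1.30 for late over early G1, and Psme4 had 0.742, 24.3, 14.9 and 11.4. Psmf1, which encodes the regulator PI31, had 0.509, 11.1, 12.1 and 8.24. Psmc3ip, the gene outside the proteasome, had 0.815, 56.4, 49.7 and 40.5.

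The genes of tissue types of proteasome did not share a course. Psmb9 had 0.0566 during mitosis, 2.38 at early G1, 8.53 at late G1 and 4.17 in asynchronous cells, 3.48-fold higher in late than in early G1. Psmb8 had 0.0384, 5.15, 5.07 and 1.56, about 3.1-fold above the cycling level in both G1 columns (3.17-fold in early G1 and 3.12-fold in late G1). Psmb10 was listed at 0 in mitosis and had 25.1 at early G1, 11.7 at late G1 and 20.7 in asynchronous cells, so it was at least 2-fold lower in late than in early G1. Although the products of these genes are built into 1 particle, Psmb9 was highest in late G1 and Psmb10 in early G1. Psmb8 was nearly equal in both G1 columns (log2 ratio -0.02 for late over early G1). Psmb11, the thymus subunit, had 0.175, 5.55, 4.96 and 2.71, and Psma8, the testis subunit, had 0.264, 3.51, 6.09 and 4.796. The start given by the table differed from the nearest RefSeq start by over 100 bases in 7 of the 41 genes with a promoter, and these include all 4 immuno and thymus genes. For Psmb10 (chromosome 8, start at 105937025) the offset was 1367 bases, downstream and inside the gene, and for Psmb11 (chromosome 14, 54621433) -3877 bases, which is upstream. For Psmb8 (chromosome 17, 34197721) and Psmb9 (chromosome 17, 34187764) the offsets were -474 and -434 bases, also upstream. The Psmb9 start overlaps that of Tap1 (34187728) on the other strand by 36 bases, and since use of strand is not stated for the table, signal of the pair near this start may not be separable.

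The class I antigen processing genes put Psmb9 beside others of its locus. Of 15 genes on that list, 5 of them proteasome genes, the late over early G1 ratio was 2-fold or more upward for 4 (15.1% of all genes) and downward for 2 (7.52%). The higher genes were Psmb9, the peptide transporter genes Tap1 and Tap2, which lie next to Psmb9 and Psmb8 in the MHC, and Nlrc5, the transactivator of class I genes. The starts of Psmb9 and Tap1 overlap, so these genes may not count separately if strand was not used. Tap1 had 0.669 during mitosis, 6.48 at early G1, 26.6 at late G1 and 6.82 in asynchronous cells, and Tap2 had 0.231, 0.874, 4.22 and 2.63. Nlrc5 had 0.0610, 1.05, 6.23 and 0.900, a 5.51-fold higher signal in late than in early G1. The lower genes were Psmb10 and Psme2. Irf1, a transcription factor of the interferon response, had 0.772, 14.1, 9.31 and 22.1, and Tapbp, which encodes tapasin, had 5.18, 69.9, 65.1 and 132. Both were at least 2-fold below the cycling level in late G1. Fibroblast markers differed over the same interval: the late over early G1 ratio was 2-fold or more upward for 6 of 16 and downward for none, with a median log2 ratio of 0.77, although their summed signal was 211 in late G1 and 239 in early G1. Most of that sum came from Fn1 (106 in early G1 and 61.3 in late G1), Tagln (47.2 and 30.2) and Sparc (36.5 and 31.8). Of the 16 markers, 10 were higher in late than in early G1 and 6 were lower. The part of the fibroblast markers in the class I values was not tested.

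**Figure D4:**
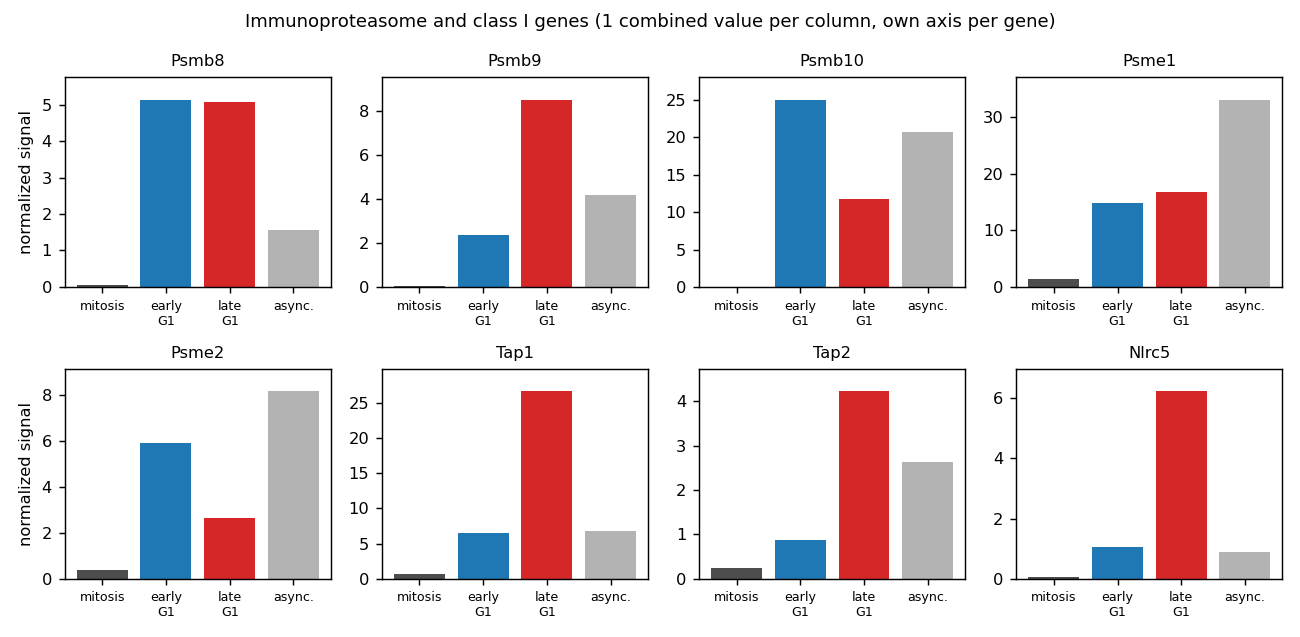
Normalized signal of 5 immunoproteasome or PA28 genes and of Tap1, Tap2 and Nlrc5 in the 4 columns, with 1 combined value per bar and a separate axis from 0 for each gene. Psmb9, Tap1, Tap2 and Nlrc5 are highest in late G1, whereas Psmb10 is highest in early G1 and Psme1 and Psme2 in asynchronous cells.

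Genes that work with the proteasome but carry other names are given for comparison. Of 13 such partners in the table, from a list of 16, all 13 were above the cycling level in early G1 and 11 were lower in late than in early G1 (median log2 ratios 0.61 and -0.37). Of all genes 63.7% and 53.8% did so, with medians of 0.30 and -0.08. None of the 13 was at least 2-fold lower in late than in early G1, where 7.52% of all genes were. Pomp, which encodes the maturation factor of the 20S core, had 1.42 during mitosis, 20.4 at early G1, 22.3 at late G1 and 8.84 in asynchronous cells, and Txnl1, a thioredoxin bound to the 19S particle, had 1.22, 32.1, 27.1 and 10.6. Both stayed over 2-fold above the cycling level in late G1. They were 2 of the 13, where 16.9% of all genes were at least 2-fold higher, so this count is no more than the background. Adrm1, a ubiquitin receptor of the base, had 8.999, 144, 104 and 104.

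Transcription factors of proteasome genes differed among themselves. Nfe2l1, which restores proteasome gene transcription when the proteasome is inhibited, had 2.90 during mitosis, 56.5 at early G1, 35.9 at late G1 and 66.3 in asynchronous cells, and its relative Nfe2l3 had 3.52, 147, 100.3 and 32.5. Nfe2l3 was 4.50-fold above the cycling level in early G1 and 3.08-fold in late G1, the one gene of the 8 on this list at least 2-fold away from it in either. Over all genes, 17.7% lay 2-fold or more above and 9.53% below in early G1, and 16.9% and 5.14% in late G1, so 1 of 8 is no more than the background. Among 14 genes of ubiquitin supply and delivery, 2 were at least 2-fold lower in late than in early G1 and none higher (7.52% and 15.1% of all genes). These were Vcp, the ATPase that extracts ubiquitylated proteins, with 2.29, 61.0, 27.1 and 25.96, and Uba6, a ubiquitin-activating enzyme, with 0.185, 8.07, 3.80 and 3.58. In early G1 3 of the 14 were at least 2-fold above the cycling level (17.7% of all genes), Vcp (2.34-fold), Uba6 (2.22-fold) and Rad23b, a shuttle factor gene (2.14-fold). In late G1 the shuttle factor genes Ubqln4 and Ubqln2 lay at least 2-fold above and below the cycling level, with 2.06, 42.6, 48.7 and 23.9 for Ubqln4 and 1.85, 12.7, 9.52 and 23.5 for Ubqln2.

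Position, length and signal level were looked at last. The 49 genes lie on 16 chromosomes, and 9 of them (18.4%) have a neighbour in the table that starts within 1000 bases and points away, against 10.9% of all genes. Psmc5 and Ftsj3, a gene of ribosome biogenesis whose start lies 75 bases away, had log2 ratios of -1.18 and -1.05 for late over early G1. Psmb1 and Tbp, the gene of the TATA-binding protein, 161 bases apart, had -0.72 and -0.65, and Psmc2 and Dnajc2, 99 bases apart, had -0.58 and -0.70. Other pairs differed more: Psma2 had -0.95 and the mitochondrial ribosomal gene Mrpl32 -0.15, and Psmd13 had -0.69 and the deacetylase gene Sirt3 -0.03. Psma7 and Ss18l1 had -1.10 and -0.57, and Psme2 and Rnf31 -1.12 and -0.72. Psmd10 and the autophagy gene Atg4a had -0.49 and -0.36, and Psmg2 and Cep76 0.20 and 0.01. Neighbours of 1 promoter region could share signal if strand was not used. Annotated spans of the members, known for 47, had a median of 11567 bp, against 21490 bp for all genes. Across these 47 genes the log2 ratio of late over early G1 had a Spearman correlation of -0.02 with the span, beside 0.05 for all genes. For late G1 over asynchronous cells it was 0.35, beside 0.23 for all genes, and for early G1 over asynchronous cells 0.24, beside 0.14. With the asynchronous signal, the late over early G1 ratio had a Spearman correlation of -0.31 over the 49 members and -0.29 over all genes. The median asynchronous signal was 14.4 for the members and 9.43 for all genes. The part of this level in the members' lower ratio was not tested. These values are a description of genes that share the same libraries.

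**Figure D5:**
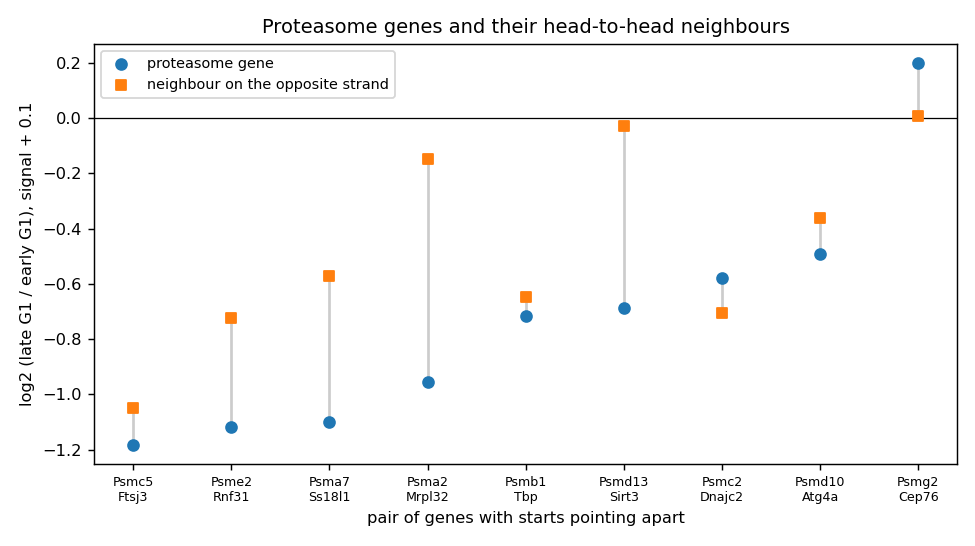
Log2 ratio of late G1 over early G1 (signal + 0.1) for 9 proteasome genes (circles) and the neighbour on the opposite strand whose start lies within 1000 bases (squares). Both genes of Psmc5 and Ftsj3 lie near -1.1, while Sirt3 and Mrpl32 stay near 0 beside partners at -0.69 and -0.95.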

How the data were processed

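PRO-seq of a mouse iPSC line covered 4 groups of 2 libraries, per the labels. The values are a normalized signal per gene made and deposited by the authors, with 1 combined column per group. The submitters' processing notes name the GRCm38 (mm10) build and the tools Bowtie2, cutadapt, SAMtools and Picard. How reads were assigned to genes, use of strand, scaling and the combination of libraries are not stated in those notes or labels. Depth is unknown, so no counting interval is given. The columns sum to 16863 during mitosis, 361203 at early G1, 326086 at late G1 and 309144 in asynchronous cells. The authors' deposited temporal classes are text and were used as labels.

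From these values the log2 ratio of (signal + 0.1) was taken for genes with a mean signal of at least 0.5, which left out 47 genes and none of the 49 members. Genes at exactly 0 in a column, 431 in all and 2 of the members, were left out of ratios that use it. Counts use a 2-fold limit in either direction and stand beside those of all genes tested. With 1 column per group no test, SD or p-value is given. The ratio and its 2-fold limit were checked on the asynchronous signals, copied to each group and given planted changes of over 2-fold. Other steps had no such check. Python 3.11.15 with pandas 2.3.3 was used. All member symbols matched RefSeq (GRCm38.p6). Members and gene lists were chosen with earlier results of these data known. Values are given for members at least 2-fold changed in a G1 comparison, for the highest and lowest of each role by asynchronous signal, for the 3 highest and 3 lowest mitotic shares, for catalytic subunits and for Psmc3ip. Listed genes that are no members are named where at least 2-fold changed, and a few others (Psmd14, Psmg1, Psmg4, Psmf1, Psma8, Adrm1 and Nfe2l1) were added after their values were seen. Alternatives were pseudocounts of 0.02 and 0.5, minimum signals of 0 and 2.5, equal medians, quantile normalization, genes at 0 kept, a fold of 1.5 and smaller member lists.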

Additional observations from a re-analysis of the deposited data

How the results depend on the processing

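The course of the proteasome genes kept its direction under the settings tried, except against asynchronous cells in late G1. There the median log2 ratio of 0.08 turned to -0.13 with equal medians and -0.15 with quantile normalization. Members at least 2-fold lower numbered 4 under each instead of 1, beside 7.91% and 9.999% of all genes instead of 5.14%. Late over early G1 gave 2 members at least 2-fold higher under both scalings, and 4 lower with quantile normalization. Of all genes 17.4% were higher with equal medians, and 10.75% were higher and 8.25% lower with quantile normalization. Early G1 over asynchronous cells gave 3 higher and 3 lower with equal medians, and 3 and 2 with quantile normalization. The shares of all genes were 8.72% and 14.9% with equal medians, and 9.32% and 11.1% with quantile normalization. Against the mitotic column, equal medians and quantile normalization remove the general change by construction. The median of mitotic over asynchronous cells became -0.017 and -0.038 with 4 lower under each, beside 6.998% and 6.72% of all genes. That of early G1 over mitosis became 0.27 and 0.23 with 5 higher and 1 lower under each. There 4.94% and 5.54% of all genes were higher, and 13.8% and 8.91% lower. Restricting the list to the 31 constitutive subunits gave 0 higher and 4 lower in late over early G1 (15.1% and 7.52% of all genes). It gave 2 and 0 in late G1 over asynchronous cells (16.9% and 5.14%), and 0 lower in early G1 over asynchronous cells (9.53%). Against mitosis it gave 30 in either comparison, where fewer genes enter (99.1% and 99.3% of all genes). Without members that overlap another gene, Psme1 drops out and 0 were at least 2-fold lower in early G1 than in asynchronous cells (9.53% of all genes). A fold of 1.5 gave 3 higher and 20 lower in late over early G1 (24.8% and 23.5% of all genes). It gave 4 lower in late G1 over asynchronous cells (12.3%), and 28 higher and 3 lower in early G1 over asynchronous cells (36.4% and 17.2%). Of 23 single-gene ratios past 2-fold, 12 stayed past it under all settings tried. Equal medians and quantile normalization each brought under 2-fold Psma2, Psma5, Psmb1, Psmb11, Psmd12 and Psme4 in early G1 over asynchronous cells, Psma7 and Psmb10 in late over early G1, and Psmb9 in late G1 over asynchronous cells. Quantile normalization did so for Psma4 and Psmc5 in late over early G1, and a pseudocount of 0.5 for Psma5, Psmb11 and Psmb9. No paired analysis was possible because the table holds 1 combined column per group, and leaving out a replicate could not be run for the same reason.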

Other observations

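Summed over the 49 genes, the signal was 42.9 during mitosis, 1254 at early G1, 867 at late G1 and 844 in asynchronous cells. In early G1, Psmb6 (351%), Psmd6 (346%) and Psmb8 (331%) stood furthest above their asynchronous signal. The next constitutive genes were Psmb1 (224%), Psmd12 (222%) and Psma2 (214%). These genes were chosen after their values were seen.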
